A study of Rattus norvegicus with 27 samples.

Results

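Polysome RNA of the hippocampal CA1 field was compared with total RNA of the same field in rats that had no ischemia. The comparison took every array whose label names NIC CA1 polysome RNA, 3 arrays, against every array whose label names NIC CA1 total RNA, 3 arrays, which is 6 of the 27 arrays of the series. NIC means non-ischemic control, and these male Long Evans rats had a sham operation. Each array held RNA from a pool of the dissected CA1 fields of 5 rats, so the spread between arrays is a spread between pools and not between rats. A supernatant freed of mitochondria was made from each pool, part of it was extracted as total RNA, and the rest was spun through a sucrose pad, whose pellet gave polysome RNA. Further contexts served as comparisons. One was NIC CA3, the neighbouring field of rats treated in the same way, with 3 polysome and 3 total RNA arrays. The other was 8R CA1, from rats given 10 min of global brain ischemia and 8 h of reperfusion, with 3 polysome and 4 total RNA arrays.

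An mRNA under translation carries several ribosomes at once, and such polysomes sediment faster than free ribonucleoprotein. The share of a transcript found in the pellet depends on how often ribosomes start on it and on how long its coding region is, since a long one holds more ribosomes. Some mRNAs are known to be held back from ribosomes: those of ribosomal proteins through a pyrimidine tract at their 5′ end, and those of ferritins through an iron response element. RNAs without a coding region, and mRNAs translated inside mitochondria, are background checks for such a preparation. CA1 contains the cell bodies of pyramidal neurons and a wide neuropil, so many of its mRNAs are in dendrites.

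The deposited array intensities, which are linear, were analysed as log2(intensity + 16), and every log2 difference below is polysome minus total on that scale. Of 18166 genes with a probe set of their own, 12716 passed a filter on dim signal and were tested with limma in 1 fit of all 27 arrays, with p-values adjusted by the Benjamini-Hochberg method over all genes tested. A gene was called at an adjusted p under 0.05. Array medians were 32.2 to 34.5 in NIC CA1 polysome RNA and 30.7 to 31.3 in NIC CA1 total RNA, the lowest correlation between arrays of a group was 0.982 and 0.983, and the median SD of a gene was 0.109 and 0.10 log2. The 8R arrays spread more, with a median SD of 0.173 log2 in CA1 polysome RNA and 0.152 log2 in CA1 total RNA, which raised the variance used in every comparison. The CA1 label was checked in total RNA, where NIC CA1 was set against NIC CA3. Among pyramidal neuron markers, 6 of 9 known for CA1 were higher in NIC CA1 and 5 of 10 known for CA3 were lower, while over all genes 2.41% were higher and 1.06% lower (3.47% either way). Of 11 oligodendrocyte markers, 10 were also higher in NIC CA1 total RNA than in NIC CA3 total RNA.

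A large share of the transcripts measured differed between polysome and total RNA of control CA1, and most of those were higher in polysome RNA. Of 12716 genes, 5013 were higher in polysome RNA (39.4%) and 588 were lower (4.62%), which together is 44.0% of the genes tested. Differences of 2-fold or more were found for 204 of the higher and 50 of the lower genes. The falls reached further than the rises, from -4.47 at the lowest, while a single gene exceeded 1.37. In 49.3% of genes all 3 polysome arrays lay above all 3 total RNA arrays, and in 8.26% they all lay below.

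The balance of higher and lower calls changed with the scaling of the arrays. The median difference of all genes was 0.20 log2, with quartiles of -0.01 and 0.48. After each array was centred on its median, 2802 genes were higher (22.0%) and 1770 lower (13.9%), and after quantile normalization 2364 were higher (18.6%) and 1807 lower (14.2%). Each pool gave both RNAs, and the number in an array's code was read as its pool. With the pool as a block 5889 genes were higher and 927 lower, or 3642 and 2664 after centring. Counts of members that the block moved by over 1.5 times are given beside them. Gene groups are therefore to be read beside the shift of 0.20, and their counts after centring are given too. Every count of members stands against the shares of all genes, 39.4% higher and 4.62% lower, or 22.0% and 13.9% after centring. The difference also grew with signal. In 5 equal groups of the genes by brightness the median was 0.08, 0.11, 0.22, 0.37 and 0.46, the brightest last, and the share of genes called higher was 14.0%, 24.9%, 40.5%, 55.9% and 61.9%. Olfactory receptor genes, most of which are silent in hippocampus, gave a measure of array background. Their 1185 genes had a median signal of 10.2 in polysome RNA and 7.6 in total RNA, and the part of the background in the shift was not tested.

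**Figure D1:**
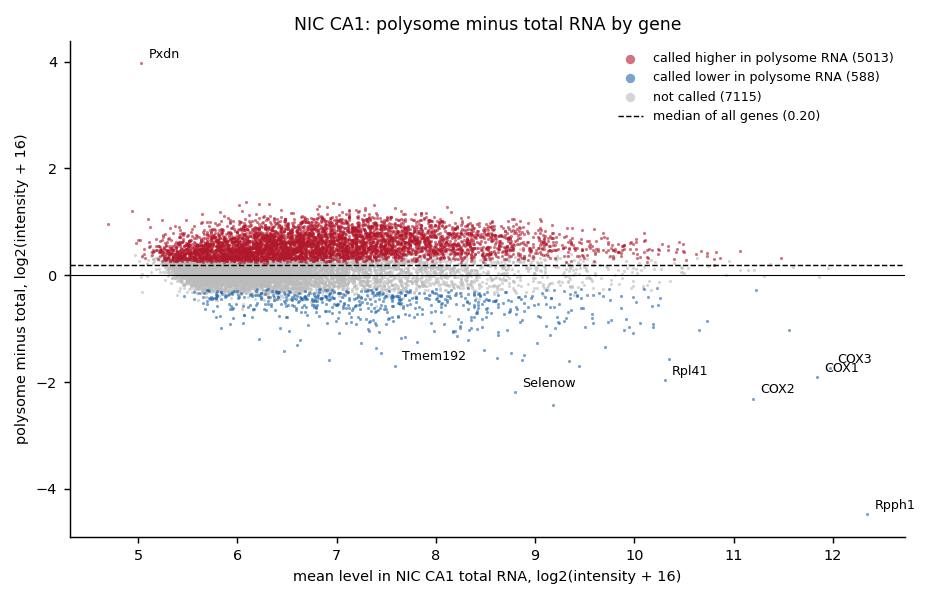
Polysome minus total RNA of NIC CA1 on the log2(intensity + 16) scale (vertical) against the mean level in total RNA on the same scale (horizontal), 1 point per gene, red for the 5013 genes called higher and blue for the 588 called lower. Most points form a band around the dashed median of 0.20, and the blue points reach further from it than the red ones, with Pxdn as the exception.

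The largest fall was that of a structured noncoding RNA. Rpph1, named on the array for the RNA component of ribonuclease P, had intensities of 220, 155 and 304 in polysome RNA, against 5260, 5020 and 5310 in total RNA. The 2 groups were far apart and did not overlap (log2 difference -4.47 ± 0.24 SE, 22.2-fold lower, limma adjusted p = 4.61e-14). The current gene record matched to this probe set is typed as the RNA of ribonuclease MRP, a relative of ribonuclease P RNA, so which of these RNAs was measured is not settled.

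The next largest fall was that of an mRNA that cytosolic ribosomes do not translate. COX2, encoded in the mitochondrial genome, had 512, 462 and 400 in polysome RNA, against 2410, 2240 and 2330 in total RNA (log2 difference -2.31 ± 0.19 SE). COX1 and COX3, the other mitochondrially encoded subunits of cytochrome oxidase on the array, differed by -1.91 and -1.74. COX1 read 1010, 1000 and 886 in polysome RNA, against 3750, 3550 and 3670 in total RNA. The 3 members tested of the mitochondrially encoded list all fell, and their summed signal was 2420 to 2810 in polysome RNA and 9700 to 10300 in total RNA. Mitochondria were removed before either RNA was made, so the levels describe what was left in the supernatant.

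Several of the other large falls were of mRNAs for small proteins. Selenow, a small selenoprotein with a redox role, had 77.9, 82.4 and 83.2 in polysome RNA, against 434, 404 and 448 in total RNA (log2 difference -2.19 ± 0.10 SE, limma adjusted p = 1.87e-15), the lowest adjusted p of the comparison. Rpl41, the smallest ribosomal protein, had 349, 282 and 293 in polysome RNA, against 1290, 1150 and 1290 in total RNA (-1.97 ± 0.21 SE). Ost4, a very small subunit of the enzyme that adds glycans in the endoplasmic reticulum, had 177, 130 and 148 in polysome RNA, against 442, 421 and 508 in total RNA (-1.50). Rpl32l2, a ribosomal protein-like gene, differed by -1.46. Protein length was not analysed here, so the share of small proteins among the lower genes has no count.

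The other named falls were of mixed function. Hba-a1, which encodes alpha globin and marks red blood cells, read 154, 199 and 256 in polysome RNA, against 662, 641 and 734 in total RNA (-1.69). Tmem192, a lysosomal membrane protein, read 50.3, 37.9 and 42.6 in polysome RNA, against 191, 157 and 179 in total RNA (-1.69). Slc25a23, a calcium-regulated carrier of the inner mitochondrial membrane, differed by -1.60, and Mlip, known as a lamin-interacting protein of muscle, by -1.59. Neuronal membrane proteins followed. Cnih2, an auxiliary subunit of AMPA receptors, read 403, 428 and 434 in polysome RNA, against 1240, 1260 and 1360 in total RNA (-1.57), and Nrsn1, a neuronal vesicle protein, differed by -1.55. The odorant receptor gene Olr36 differed by -1.58 at a signal of 22.2 to 26.3 in polysome RNA. Its reading in a tissue that is not olfactory was not checked against other probes.

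The largest rise stood alone in size. Pxdn, a peroxidase of the extracellular matrix, read 539, 479 and 475 in polysome RNA, against 17.4, 19 and 13.6 in total RNA (log2 difference 3.97 ± 0.80 SE, 15.7-fold, limma adjusted p = 0.000173). Across the series its total RNA readings all lay between 12.5 and 24.5. Its polysome readings were 366 to 432 in NIC CA3, 675, 485 and 12.5 in 8R CA1, and 523, 458, 460 and 8.23 in 8R CA3. The low polysome readings both came from 8R arrays whose descriptions carry the pool number 4. A residual spread of this size gives the wide SE, since all 27 arrays share it. What sets this probe set apart was not tested.

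After Pxdn the rises were close to each other in size, between 1.23 and 1.37. Hnrnpa2b1, an hnRNP protein that binds mRNA for splicing and transport, read 799, 642 and 536 in polysome RNA, against 276, 236 and 271 in total RNA (1.27 ± 0.13 SE). Safb, a nuclear scaffold protein, read 321, 297 and 318 in polysome RNA, against 113, 115 and 113 in total RNA (1.34). Htatsf1 and Cdc40, both splicing factors, differed by 1.31 and 1.26, and Ssb, the La protein that binds new RNA polymerase III transcripts, by 1.27. Rnf20, the ligase that ubiquitinates histone H2B, differed by 1.34, Taf1, a large subunit of the general transcription factor TFIID, by 1.23, and Nap1l2, a neuronal nucleosome assembly protein, by 1.32.

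The remaining rises were of cytoplasmic proteins. Herc2 and Herc1 are giant ubiquitin ligases. Herc2 read 261, 269 and 251 in polysome RNA, against 103, 89.6 and 98.9 in total RNA (1.29 ± 0.13 SE), and Herc1 differed by 1.26. Ppp1r9a, the spine scaffold neurabin, read 196, 200 and 160 in polysome RNA, against 60.6, 64.1 and 66.8 in total RNA (1.33). Hspd1, the mitochondrial chaperonin, differed by 1.35, Aimp1, a scaffold of the complex of tRNA synthetases, by 1.25, and Ccdc25 by 1.37. All 15 named rises and all 15 named falls were called in the same direction after centring and after quantile normalization.

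**Figure D2:**
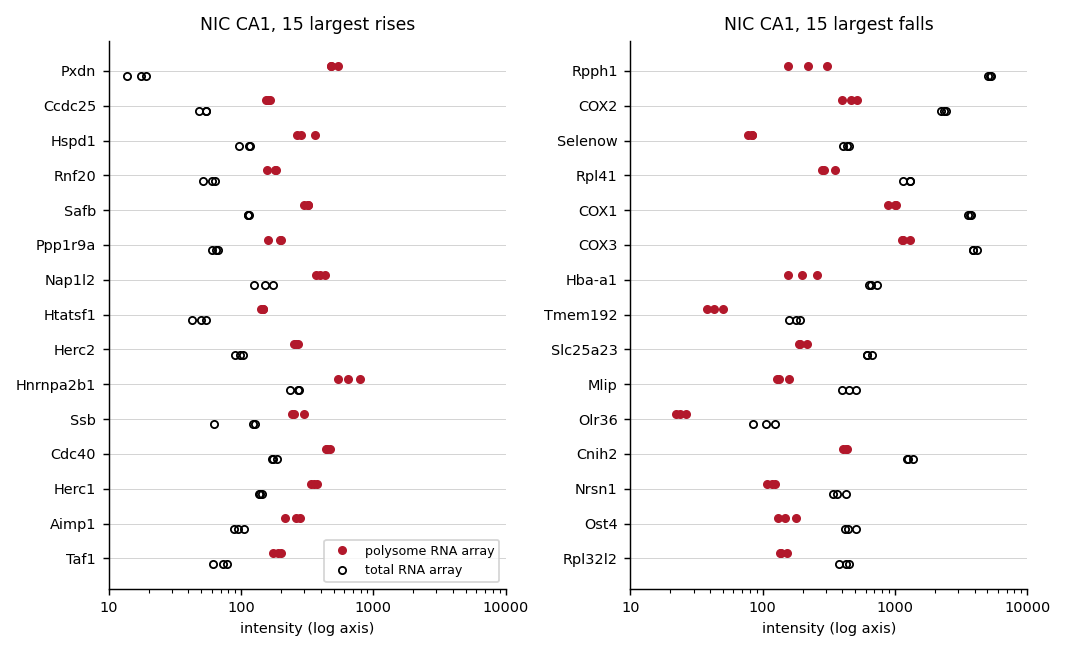
Intensity on a log axis in each NIC CA1 array for the 15 genes with the largest rise (left) and the 15 with the largest fall (right), with filled points for the 3 polysome arrays and open points for the 3 total RNA arrays. In every row the 2 groups are apart, by most for Pxdn at 475 to 539 in polysome RNA, against 13.6 to 19 in total RNA, and for Rpph1 at 155 to 304 in polysome RNA, against 5020 to 5310 in total RNA.

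The translation apparatus split into mRNAs that were lower and mRNAs that were higher in polysome RNA. Of 35 tested large subunit ribosomal protein genes 13 were lower and 1 was higher (median -0.21), and of 17 small subunit genes 10 were lower and 0 higher (median -0.39). The background was 4.62% lower and 39.4% higher, and after centring 20 and 13 members were lower, with 0 higher. With the pool as a block 18 large subunit genes were lower and 3 higher, and 11 small subunit genes were lower and 2 higher. The summed signal of the small subunit genes was 4660 to 4990 in polysome RNA and 7230 to 8050 in total RNA. Rps29 read 1760, 1340 and 1350 in polysome RNA, against 3050, 2930 and 3010 in total RNA (-1.02), and Rpl39 differed by -1.11, Rpl35 by -0.90, Rps15 by -1.11, Rps21 by -0.85 and Rps14 by -0.84. Rpl10 read 229, 154 and 139 in polysome RNA, against 395, 292 and 449 in total RNA (-1.06). Ribosomal protein genes have near-identical processed copies in the genome, and a probe set can read several of them.

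The start of these mRNAs is known to carry a pyrimidine tract, and start regions are shown for members of both directions. The windows are RefSeq sequences of build GRCr8, 25 bases before the annotated start and 25 from it, so that the start is base 26. CTTTTC or CTTTCC, exact forms of a pyrimidine run, were searched anywhere in the window on both strands. A window can hold both forms. They are in capitals where found on the gene's strand. Tracts of other sequence were not searched for, and Rps21 holds an unmarked pyrimidine run across base 26. A match can also lie past the start, as in Aars1. Rpl10 lies at chrX:157205825-157205874 (plus strand), Rps15 at chr7:10068091-10068140 (minus), Rps14 at chr18:56498235-56498284 (plus), Rpl41 at chr7:1563473-1563522 (minus) and Rps21 at chr3:187724013-187724062 (plus), and all of these were lower in polysome RNA. Aars1 at chr19:55908457-55908506 (plus) and Tars1 at chr2:62114778-62114827 (minus) encode tRNA synthetases and were higher.
Rpl10: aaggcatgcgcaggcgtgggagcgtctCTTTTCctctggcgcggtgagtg
Rps15: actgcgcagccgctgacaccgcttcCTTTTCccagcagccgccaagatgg
Rps14: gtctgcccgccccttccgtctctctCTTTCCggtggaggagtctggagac
Rpl41: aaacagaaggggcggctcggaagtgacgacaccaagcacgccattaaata
Rps21: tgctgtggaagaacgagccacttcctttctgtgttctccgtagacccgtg
Aars1: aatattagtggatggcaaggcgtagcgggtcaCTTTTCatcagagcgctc
Tars1: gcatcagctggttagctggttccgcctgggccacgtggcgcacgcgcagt
Of 44 tested ribosomal protein genes with a window, 18 held either form on the gene's strand (40.9%) and 2 on the other strand (4.55%), while of all 33469 windows 3.98% and 4.06% did. Ribosomal protein genes that were lower in polysome RNA held it in 8 of 19 windows (42.1%), and those that were not lower in 10 of 25 (40%). The shares of these exact forms were thus alike on both sides, as a description of these windows. Whether the start itself carries a tract was not tested.

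Elongation factors and other mRNAs known to carry the tract had more higher than lower members. Of 15 tested, 8 were higher and 0 lower (median 0.36), against 6 and 1 after centring and 10 and 1 with the block. After quantile normalization 6 were higher and 2 lower, at a median of 0.03. Their median signal in total RNA was 327, and in the brightest group of genes, with a median signal of 294, 61.9% were called higher. Eef1d, a subunit of the elongation factor that recharges eEF1A, read 149, 145 and 158 in polysome RNA, against 76, 76.6 and 81.2 in total RNA (0.83). Hnrnpa1 and Nap1l1, an RNA-binding protein and a histone chaperone, differed by 0.78 and 0.71, and Eif4b, which helps the cap-binding complex unwind mRNA, by 0.51. Either exact form was found in 1 of their 12 windows (8.33%).

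Initiation factors rose as a group, with 25 of 31 higher and 1 lower (median 0.60), 19 higher and 3 lower after centring, and 27 higher and 2 lower with the block. Their largest differences were in subunits of the factors that scan or join ribosomal subunits. Eif3c read 783, 704 and 740 in polysome RNA, against 393, 333 and 364 in total RNA (1.00 ± 0.09 SE). Eif3a differed by 0.95, Eif5b by 0.94 and Eif4g3, a scaffold of the cap-binding complex, by 0.83. Aminoacyl-tRNA synthetases, which charge tRNAs, were higher in 17 of 19 members and lower in 0, with the same counts after centring, at a median of 0.76. Rars1 read 203, 192 and 208 in polysome RNA, against 89.3, 73.5 and 91.3 in total RNA (1.11), and Tars1, Lars1 and Aars1 differed by 1.08, 1.06 and 1.04. In all 19 synthetase genes the 3 polysome arrays lay above the 3 total RNA arrays, against 49.3% of all genes.

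Lists drawn up for regulation by upstream open reading frames or by small molecules had members on both sides. Of 13 mRNAs listed for the integrated stress response and upstream open reading frames, 2 were higher and 2 lower. They were 0 and 3 after centring, and 4 and 3 with the block. Whether each member carries such a reading frame was not checked. Atf5, a transcription factor whose translation is known to be held low without stress, read 89.1, 67.3 and 74.9 in polysome RNA, against 115, 110 and 133 in total RNA (-0.54). The other direction was seen for Asns, asparagine synthetase, at 0.49, and Bace1, the beta secretase, at 0.43, and neither was called after centring. The arginine carrier Slc7a1 had 0.45 with a limma adjusted p of 0.0578, or 0.00308 with the block.

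Among 7 iron genes the ferritins fell and the iron regulatory proteins rose, with 3 higher and 2 lower in all, and 2 and 2 after centring. Ftl1 read 456, 439 and 484 in polysome RNA, against 1030, 943 and 1020 in total RNA (-1.09 ± 0.17 SE), and Fth1 read 848, 708 and 752 in polysome RNA, against 1710, 1530 and 1530 in total RNA (-1.03 ± 0.13 SE). Ferritin light and heavy chains form the iron storage shell. Aco1 and Ireb2, the proteins that bind iron response elements, differed by 0.77 and 0.63, and the iron importer Slc11a2 by 0.36. The transferrin receptor Tfrc had 0.25 (limma adjusted p = 0.0804, or 0.0465 with the block), and Epas1 had 0.04 and was not called.

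Polyamine genes had 2 higher and 1 lower of 8, and 1 and 3 after centring, where the balance turned. Azin1, the antizyme inhibitor, read 363, 300 and 311 in polysome RNA, against 196, 184 and 213 in total RNA (0.67), while Oaz1, the antizyme, whose translation needs a frameshift, read 221, 274 and 292 in polysome RNA, against 421, 426 and 395 in total RNA (-0.64). Odc1, ornithine decarboxylase, had 0.36 and was not called after centring or quantile normalization. The other 5 were not called, with Sms at 0.50 (called with the block, limma adjusted p = 0.011), Srm at -0.17, Oaz2 at -0.11, Amd1 at 0.06 and Sat1 at -0.02.

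Selenoproteins, read through a recoded stop codon, were higher in 8 and lower in 8 of 21. After Selenow the largest differences were those of Dio1, a thyroid hormone deiodinase (0.81), the thioredoxin reductase Txnrd1 (0.75) and the secreted selenium carrier Selenop, with 218, 210 and 212 in polysome RNA, against 390, 321 and 368 in total RNA (-0.71). After centring 3 were higher and 10 lower.

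Nuclear-encoded respiratory chain genes had members on both sides. After centring more of them were lower than higher, against 22.0% higher and 13.9% lower over all genes. Of 33 complex I genes 7 were higher and 4 lower (median 0.00), 3 and 14 after centring, and 9 and 8 with the block. The largest differences were all rises. Ndufs1, the largest subunit, read 539, 495 and 473 in polysome RNA, against 245, 226 and 266 in total RNA (0.99), Ndufv1 differed by 0.86, Ndufs5 by 0.72 and Ndufa9 by 0.56. Of 35 genes of complexes II to V 12 were higher and 7 lower, and after centring the balance turned to 8 and 11. Sdha, the flavoprotein of complex II, read 803, 782 and 817 in polysome RNA, against 478, 411 and 467 in total RNA (0.81), whereas Cox8a, a small subunit of cytochrome oxidase, read 497, 442 and 540 in polysome RNA, against 954, 985 and 981 in total RNA (-0.96 ± 0.09 SE). Uqcrfs1 and Uqcrc2 of complex III differed by 0.79 and 0.77.

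Mitochondrial ribosomal proteins were close to the background, with 27 of 72 higher and 5 lower (median 0.26), and 13 and 6 after centring. Mrps5 and Mrps31 differed by 0.95 and 0.93 and Mrpl19 by 0.77, while Mrpl42 read 14.4, 16.9 and 18.6 in polysome RNA, against 23.6, 48.7 and 49.5 in total RNA (-0.76). Glycolysis enzymes were higher in 10 of 10 members, and in 9 after centring (median 0.61). All 3 phosphofructokinase subunits were among the largest, with Pfkl at 557, 548 and 561 in polysome RNA, against 278, 278 and 271 in total RNA (0.97), Pfkm at 0.85 and Pfkp at 0.72. Pgk1, which makes ATP in the pathway, differed by 0.90.

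Among protein degradation and folding genes, most proteasome subunits, large ubiquitin ligases and cytosolic or mitochondrial chaperones were higher. Proteasome subunits were higher in 27 of 30 members and lower in 0 (median 0.69), with 21 higher after centring, and their summed signal was 12100 to 13300 in polysome RNA and 7190 to 8550 in total RNA. Psma5, a subunit of the core ring, read 211, 179 and 201 in polysome RNA, against 86.6, 73.2 and 74.9 in total RNA (1.17 ± 0.21 SE), and Psmc6, an ATPase of the cap, differed by 1.07. Psma4 and Psmd7 differed by 0.98 and 0.95. All 17 tested ubiquitin ligases of large size were higher, also after centring, at a median of 0.92. Next to Herc2 and Herc1, Mycbp2 read 339, 354 and 312 in polysome RNA, against 149, 144 and 152 in total RNA (1.09), and Birc6 differed by 1.08.

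Cytosolic and mitochondrial chaperones were higher in 23 of 29 members and lower in 0 (median 0.81), 19 and 1 after centring, and 24 and 1 with the block. Hspd1 read 362, 264 and 284 in polysome RNA, against 117, 95.6 and 114 in total RNA. The co-chaperone Dnaja2 differed by 1.16, the Hsp110 family member Hspa4l by 1.06 and the Hsp90 partner Fkbp4 by 1.06. Of 20 endoplasmic reticulum chaperones 12 were higher and 1 lower, at a median of 0.38. Calr, calreticulin, read 465, 489 and 465 in polysome RNA, against 262, 274 and 261 in total RNA (0.79), and Hsp90b1, P4hb and Pdia3 differed by 0.77, 0.71 and 0.67. After centring 7 were higher and 3 lower, and with the block 13 and 2.

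RNA-binding and chromatin proteins were higher in most members. Of 29 splicing and nuclear scaffold proteins 28 were higher and 0 lower, also after centring, at a median of 0.90. Hnrnpu read 1060, 838 and 829 in polysome RNA, against 445, 384 and 448 in total RNA (1.06), Snrnp70, a protein of the U1 particle, differed by 1.07, and the splicing factor Srsf7 by 1.15. Their summed signal was 9980 to 10700 in polysome RNA and 5260 to 5760 in total RNA.

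Proteins that bind AU-rich elements or poly(A) were higher in 22 of 31 members and lower in 1 (median 0.66), 21 and 3 after centring, and 25 and 3 with the block. Ncl, nucleolin, read 1070, 1080 and 1110 in polysome RNA, against 555, 481 and 504 in total RNA (1.06 ± 0.11 SE). Tardbp, or TDP-43, differed by 1.05, Fmr1, the fragile X protein, by 0.98 and Matr3 by 0.98. Chromatin remodellers and histone modifiers were higher in 22 of 28 members and lower in 1 (median 0.69), and 21 and 2 after centring. Chd4, an ATPase of the NuRD complex, read 329, 296 and 306 in polysome RNA, against 124, 127 and 122 in total RNA (1.22 ± 0.10 SE), Smarca5, the ISWI ATPase, differed by 1.15, Chd5 by 1.14 and the demethylase Kdm5b by 0.97. Histones themselves went the other way, with 3 of 25 higher and 7 lower, and 0 and 12 after centring. H4c14 read 99.2, 54.4 and 85.9 in polysome RNA, against 197, 193 and 236 in total RNA (-1.25), and H2bc12 differed by -0.78, Hist1h3b by -0.56 and H2ac4 by -0.53. Histone genes are near-identical to each other, so a probe set may read more than 1 gene.

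Neuronal mRNAs were described by lists of binding, localization and function. Of 56 mRNAs known in mouse brain as bound by the fragile X protein, which slows their translation, 53 were higher and 0 lower (median 0.74), and 37 were higher after centring. In all 56 the 3 polysome arrays lay above the 3 total RNA arrays, against 49.3% of all genes. Among these were Herc2, Herc1, Chd4 and Chd5, described above. Of 20 dendritically localized mRNAs 11 were higher and 1 lower (median 0.33). Itpr1, the calcium release channel of the endoplasmic reticulum, read 747, 934 and 792 in polysome RNA, against 382, 444 and 445 in total RNA (0.93). Shank3, a scaffold of the postsynaptic density, differed by 0.74, the kinase-like Camkv by 0.72 and Lrrc7, or densin, by 0.60. After centring 4 dendritic mRNAs were higher and 2 lower.

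Of 13 glutamate receptor genes 6 were higher and 0 lower (median 0.26), and 5 after centring. The NMDA receptor subunits led them, with Grin2a at 458, 542 and 472 in polysome RNA, against 233, 255 and 268 in total RNA (0.92 ± 0.18 SE), Grin2b at 0.76 and Grin1 at 0.74. Grm5, a metabotropic receptor, differed by 0.69. Of 9 GABA-A receptor subunits 3 were higher and 1 lower, and 2 and 2 after centring. Gabrb1 and Gabrb2 differed by 0.62 and 0.56 and Gabrg1 by 0.42. Gabra5, a subunit of tonic inhibition that hippocampus is known to express strongly, read 325, 366 and 269 in polysome RNA, against 413, 360 and 435 in total RNA (-0.32, limma adjusted p = 0.0403), with overlapping arrays.

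Sodium and calcium channels were higher in 20 of 28 members and lower in 1 (median 0.49), 12 and 3 after centring, and 21 and 3 with the block. Ryr2, the ryanodine receptor, read 344, 350 and 306 in polysome RNA, against 160, 162 and 157 in total RNA (0.99 ± 0.13 SE), and the calcium channel subunits Cacna1e and Cacna2d1 differed by 0.91 and 0.88. Potassium channels were higher in 14 of 42 members and lower in 2, near the background of 39.4% higher, and in 4 and 5 after centring (median 0.19). Kcnab1 and Kcnd2 differed by 0.89 and 0.86 and Kcnq5 by 0.76. Kcnip2, a small calcium-binding subunit of the Kcnd channels, read 313, 335 and 344 in polysome RNA, against 569, 543 and 624 in total RNA (-0.78 ± 0.12 SE). A channel and its own auxiliary subunit thus lay on opposite sides.

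Presynaptic vesicle genes were higher in 14 of 29 members and lower in 1 (median 0.23), and 9 and 4 after centring. The transporter-like vesicle proteins Sv2b and Sv2a differed by 0.81 and 0.68, the small GTPase Rab3c by 0.70 and the calcium sensor Syt4 by 0.64. Neuropeptides and granins were higher in 8 of 16 members and lower in 1, 7 and 2 after centring, and 8 and 2 with the block. Pcsk1n, an inhibitor of the prohormone convertase, read 304, 313 and 317 in polysome RNA, against 820, 822 and 806 in total RNA (-1.35 ± 0.20 SE). Scg5, a chaperone of another convertase, read 469, 488 and 510 in polysome RNA, against 242, 236 and 256 in total RNA (0.95), and Pam, which amidates peptides, and the granin Chgb differed by 0.80 and 0.76.

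Cytoskeletal and motor genes held some of the widest contrasts within a group. Of 34 members 26 were higher and 2 lower (median 0.67), and 21 and 3 after centring. Nefm and Nefh, neurofilament subunits, differed by 1.10 and 1.05, with Nefh at 398, 456 and 431 in polysome RNA, against 206, 199 and 190 in total RNA. The 2 that fell were the actin-binding thymosins, which are among the shortest proteins of the list. Tmsb10 read 149, 98 and 121 in polysome RNA, against 353, 312 and 363 in total RNA (-1.39 ± 0.14 SE), and Tmsb4x differed by -1.17.

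Immediate early genes, which neuronal activity induces, gave counts that moved with the fit. Of 32 members 9 were higher and 0 lower (median 0.10), 4 and 3 after centring, and 14 and 2 with the pool as a block. The phosphatase Dusp6 read 321, 377 and 444 in polysome RNA, against 210, 210 and 193 in total RNA (0.84), and the transcription factors Jun and Fos differed by 0.80 and 0.55. Atf3, also a transcription factor, read 34.8, 31.9 and 33.5 in polysome RNA, against 8.88, 4.29 and 16.4 in total RNA (0.96), near the array background. Extracellular matrix genes were higher in 7 of 22 members, Pxdn included, and lower in 0, and in 3 and 2 after centring. Both this list and the immediate early genes had a share of higher members under the 39.4% of all genes. The matrix genes were dim, with a median signal of 42.9 in total RNA. In the brightness groups with median signals of 33.1 and 49.9, 14% and 24.9% of genes were called higher, so the matrix share was not low for its signal. Sparcl1 read 1270, 1420 and 1390 in polysome RNA, against 927, 902 and 941 in total RNA (0.55), and the proteoglycans Agrn and Bcan each differed by 0.54.

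Markers of every cell type listed had members that were not called. Both RNAs came from the same pools of bulk tissue, so a difference between them does not count the cells of a type. CA1 pyramidal markers were higher in 5 of 9 members and CA3 markers in 5 of 10, with 0 lower in either. After centring 1 and 3 were higher, and 0 and 2 lower. Over all genes 39.4% were higher and 4.62% lower, and after centring 22.0% and 13.9%. Fibcd1 read 217, 291 and 305 in polysome RNA, against 130, 163 and 164 in total RNA (0.76), Wfs1, a membrane protein of the endoplasmic reticulum, differed by 0.56, Ccn3 by 0.59 and Pou3f1 by 0.49. The CA3 markers Kcnq5, Elavl2, Cpne4 and Plagl1 had 0.76, 0.71, 0.63 and 0.49. Of 5 dentate granule markers 3 were higher, Prox1 at 0.62, Pdzd2 at 0.51 and Calb2 at 0.39, with 0 after centring, and Plk5 and C1ql2 had 0.10 each and were not called.

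The counts of the other cell types stand against the same 39.4% higher and 4.62% lower over all genes, or 22.0% and 13.9% after centring. Interneuron markers were higher in 3 of 9, the GABA-synthesizing enzymes Gad1 and Gad2 at 0.69 and 0.56 and the vesicular transporter Slc32a1 at 0.30, and Reln had 0.24 and was not called. After centring 2 were higher and 2 lower, and with the block 3 and 1. Astrocyte markers were higher in 4 of 10, namely Aqp4 at 0.54, Aldoc at 0.50, Gfap at 0.42 and Slc1a2 at 0.42, with a summed signal of 5720 to 5860 in polysome RNA and 4590 to 4760 in total RNA. After centring 2 were higher and 1 lower, and with the block 7 and 0. Oligodendrocyte markers were higher in 3 of 11 and lower in 1, with a summed signal of 3680 to 4600 in polysome RNA and 3430 to 4090 in total RNA, and 3 and 2 after centring. Ugt8, Ermn and Cnp had 0.68, 0.66 and 0.48, while Mobp, whose mRNA is known to be carried into myelin, read 382, 361 and 309 in polysome RNA, against 513, 439 and 435 in total RNA (-0.39). Microglia markers were higher in 1 of 9, Aif1 at 0.41, and lower in 1, C1qa at -0.29, and Csf1r and Ctss had 0.26 and 0.13. After centring 0 were higher and 1 lower. Of 3 endothelial markers Esam was higher at 0.31, and Flt1 and Cldn5 had -0.18 and -0.12, with 0 higher and 1 lower after centring. The choroid plexus, meningeal and blood markers Ttr, Col1a1 and Slc4a5 had -0.44, -0.17 and 0.08 and were not called, except Ttr with the block (limma adjusted p = 0.00963).

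Noncoding transcripts other than Rpph1 were few. Gas5, a host of small nucleolar RNAs that is known to be degraded when translated, read 35.1, 21.1 and 16.2 in polysome RNA, against 74.2, 91.4 and 78 in total RNA (-1.30 ± 0.16 SE), and Terc, the telomerase RNA, differed by -0.40. Snhg11 had -0.18 and was called lower only after centring or quantile normalization, and Meg3 had 0.04 and was not called. Of 18 tested genes typed as long noncoding in the gene records, 0 were higher and 5 lower by limma, with a median difference of -0.07, against 4957 higher and 556 lower of 12443 protein-coding genes.

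MicroRNA genes were probed as loci, which reads the primary or precursor transcript and not the mature RNA. Of 83 tested, 16 were higher and 7 lower (median 0.07), and 2 and 11 after centring. The share of higher loci was under the 39.4% of all genes, but the loci were dim, with a median signal of 48.9 in total RNA. In the brightness groups with median signals of 33.1 and 49.9, 14% and 24.9% of genes were called higher. The mature RNAs of the named loci are shown to identify them, with the seed, bases 2 to 8, in capitals, as RefSeq gives them on GRCr8. Mir210 lies on the minus strand of chromosome 1, its 3p arm at chr1:205755946-205755967 and its 5p arm at chr1:205755984-205756005. The 3p arm of Mir351 is at chrX:137725121-137725141 and its 5p arm at chrX:137725157-137725181, also on the minus strand, and the mature product of Mir3597-1 is at chr2:175975025-175975043 on the minus strand.
rno-miR-210-3p: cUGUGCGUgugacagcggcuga
rno-miR-210-5p: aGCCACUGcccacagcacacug
rno-miR-351-3p: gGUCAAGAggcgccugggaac
rno-miR-351-5p: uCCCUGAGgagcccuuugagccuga
rno-miR-9b-5p: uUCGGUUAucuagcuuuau
No seed is shared among these. Mir210, known as a hypoxia-induced microRNA, read 47.7, 67.9 and 48.4 in polysome RNA, against 110, 107 and 114 in total RNA (-0.85 ± 0.13 SE). Mir351 read 72.1, 69.6 and 63.3 in polysome RNA, against 45.3, 28.6 and 34.1 in total RNA (0.71). Mir3597-1, the locus of rno-miR-9b-5p, differed by 0.71 and was not called after centring, and Mir3568 differed by 0.90.

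Gene families defined by their symbols gave the remaining counts, beside 39.4% higher and 4.62% lower over all genes, or 22.0% and 13.9% after centring. Zfp-named zinc finger genes were higher in 81 of 196 members and lower in 4 (median 0.26), near the background. The counts were 28 and 22 after centring, which moved the shares of all genes too, and 100 and 12 with the block. Zfp512, Zfp330, Zfp445 and Zfp462 differed by 0.90, 0.88, 0.87 and 0.81. Genes named as solute carriers were higher in 58 of 231 and lower in 10 (median 0.11), and 12 and 36 after centring. Slc4a10 and Slc4a8, sodium bicarbonate transporters, differed by 0.92 and 0.70, and Slc4a1ap, an adaptor protein and not a carrier, by 1.05. Cadherins and protocadherins were higher in 10 of 32 and lower in 0, and in 2 and 0 after centring, with Pcdh19, Pcdh9, Cdh2 and Pcdh8 at 0.64, 0.56, 0.48 and 0.43. Odorant receptor genes were higher in 12 of 122 and lower in 10 (median 0.02), and in 4 and 19 after centring. The share of lower calls was then near the 13.9% of all genes. Olr1585 differed by -1.21, Or12j4 by 1.06 and Or13n4b by 1.04. Or12j4 read 79.1, 61.1 and 33.6 in polysome RNA, against 17, 20.7 and 16.9 in total RNA.

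**Figure D3:**
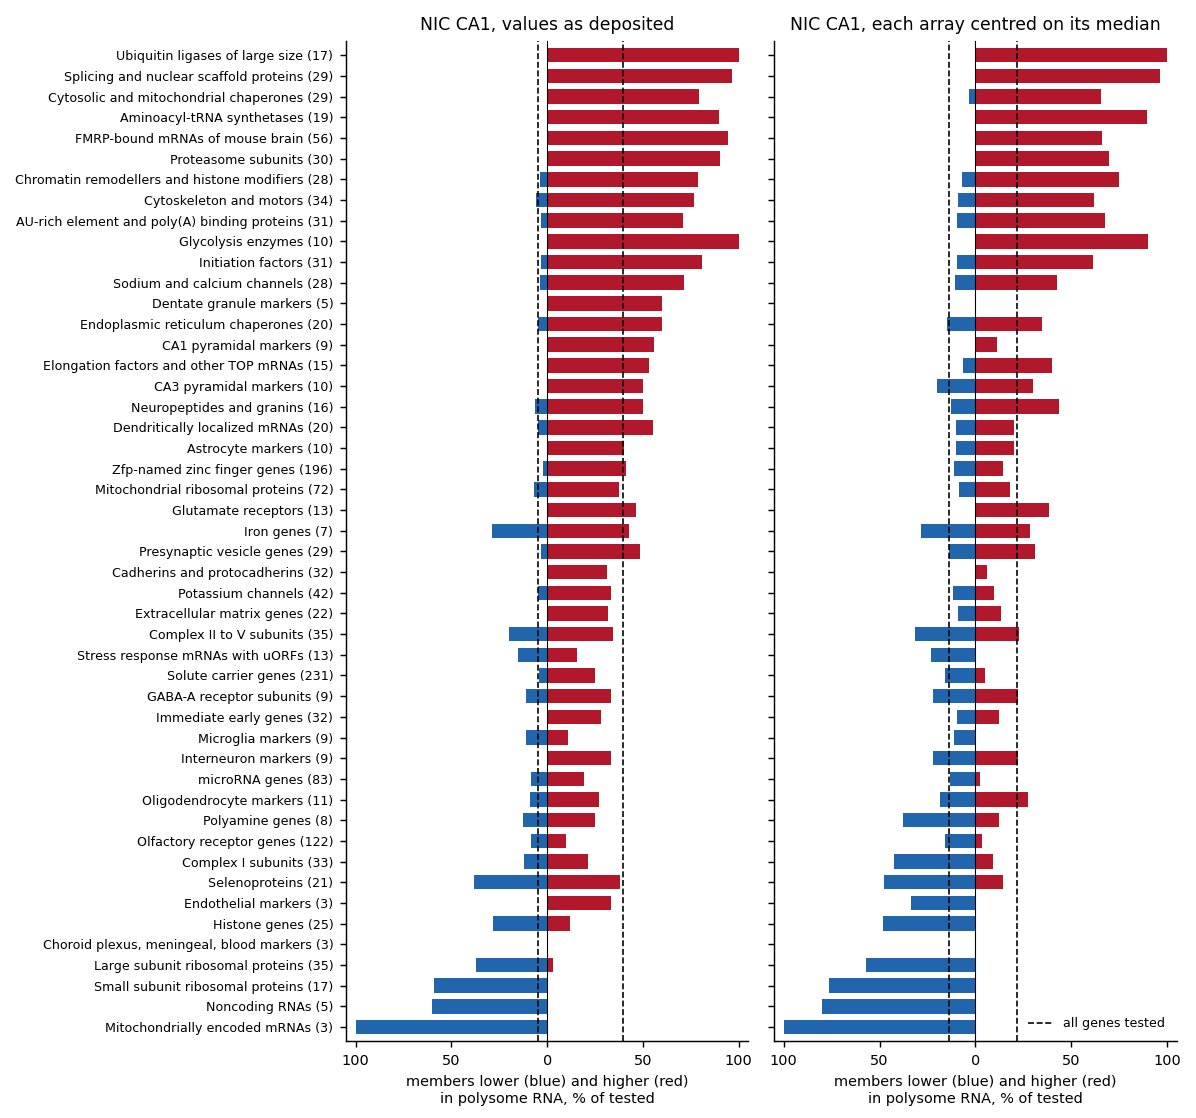
Share of the tested members of each gene list that was higher (red, to the right) or lower (blue, to the left) in NIC CA1 polysome RNA, in percent, with the number of tested members in parentheses and lists ordered by their median difference. The left panel uses the values as deposited and the right panel arrays centred on their medians. The dashed lines are the shares over all 12716 genes, 39.4% and 4.62% on the left and 22.0% and 13.9% on the right, and the bars of ribosomal proteins, histones and noncoding RNAs lie mostly on the lower side in both.

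The same contrast in CA3 asked whether the pattern was shared between hippocampal fields. Polysome minus total RNA over the 12716 genes correlated between NIC CA1 and NIC CA3 with Pearson's r = 0.904 and Spearman's rho = 0.883, across genes, which are not independent replicates. The regions share no array, but their pools may come from the same rats. In NIC CA3, 2733 genes were higher (21.5%) and 2145 lower (16.9%), which is 38.4% either way, with a median of 0.00. Of the genes higher in CA1, 2663 were higher in CA3 too, which is 53.1% of the CA1 list and 97.4% of the CA3 list. Of those lower in CA1, 545 were lower in CA3, which is 92.7% of the CA1 list and 25.4% of the CA3 list. In 20 genes the 2 regions were called in opposite directions, all 20 higher in CA1. All these counts are of the values as deposited, where the median difference was 0.20 in NIC CA1 and 0.00 in NIC CA3. The overlap of the lists was not counted after centring. The 30 genes named above for size were all called in the same direction in CA3, with Pxdn at 3.64, Rpph1 at -4.65, COX2 at -2.73 and Tmem192 at -2.21.

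The difference between the regions was tested gene by gene as an interaction. The median over genes was 0.21, and 1 gene passed (0.00786% of genes), higher in CA1, while 2189 had an unadjusted p under 0.05 (17.2%). That gene was Trpm4, a calcium-activated cation channel. It read 46.7, 45 and 36.1 in polysome RNA, against 37.2, 33.5 and 31.2 in total RNA of NIC CA1. In NIC CA3 it read 27.7, 21.5 and 18.4 in polysome RNA, against 40.3, 52.3 and 58.5 in total RNA. The arrays overlapped in CA1 and were apart in CA3, and the interaction was 1.01 ± 0.18 SE (limma adjusted p = 0.0377). With the pool as a block 1009 genes were higher in CA1 and 0 lower by limma, and 0 and 0 with the block after centring. Without the block, after centring no gene passed, by limma, with 368 at an unadjusted p under 0.05, nor after quantile normalization, with 431. Trpm4 was also not called without any single one of NIC CA1 polysome replicates 1 and 2, NIC CA1 total replicates 1, 2 and 3, NIC CA3 polysome replicates 2 and 3 and NIC CA3 total replicates 2 and 3, with adjusted p-values from 0.0555 to 0.178. More genes passed without centring in other fits, with 155 higher in CA1 without the 8R arrays of pool 4, 377 without any 8R array, and 856 higher and 1 lower with array weights.

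**Figure D4:**
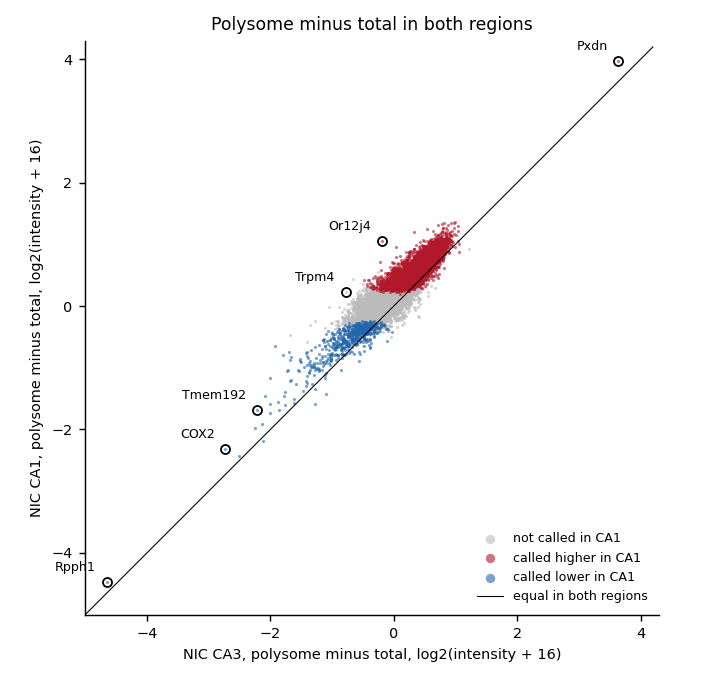
Polysome minus total RNA in NIC CA1 (vertical) against the same difference in NIC CA3 (horizontal), both on the log2(intensity + 16) scale, 1 point per gene, coloured by the call in CA1. The points lie along the line of equal differences but mostly above it, by a median of 0.21, and Trpm4, the 1 gene called for the difference between regions, is ringed at 0.23 in CA1 and -0.78 in CA3.

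After ischemia and reperfusion, CA1 had 3621 genes higher (28.5%) and 750 lower (5.90%) in 8R CA1 polysome RNA, or 34.4% either way. Of the 15 named rises of NIC CA1, 11 were called higher in 8R CA1, and of the 15 named falls all 15 were called lower. The interaction, NIC CA1 minus 8R CA1, was higher for 434 genes (3.41%) and lower for 52 (0.409%), or 3.82% either way, with a median of 0.06. The shares were 2.90% higher and 0.786% lower after centring, and 2.30% and 1.57% after quantile normalization. With the pool as a block 2657 genes were higher and 470 lower, or 1786 and 844 after centring. The 8 genes named next were called with the block too. A positive value means that the gene stood higher in polysome relative to total RNA in controls than after ischemia.

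The genes with the largest positive interactions were higher in polysome RNA of controls and had small or negative differences in 8R CA1. Hspd1 read 362, 264 and 284 in polysome RNA, against 117, 95.6 and 114 in total RNA of NIC CA1, and 603, 506 and 667 in polysome RNA, against 619, 515, 446 and 639 in total RNA of 8R CA1 (interaction 1.25 ± 0.20 SE, limma adjusted p = 0.00389). All 8R CA1 arrays of both RNAs lay above the NIC CA1 arrays of the same RNA, with the wider gap in total RNA. Ociad2, a mitochondrial membrane protein, differed by 0.66 in NIC CA1 and -0.49 in 8R CA1 (interaction 1.15). Ccdc25 differed by 1.37 in NIC CA1 and 0.24 in 8R CA1 (interaction 1.12), and Idi1, an enzyme of cholesterol synthesis, by 1.15 in NIC CA1 and 0.04 in 8R CA1 (interaction 1.11).

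The largest negative interactions were of genes lower in polysome RNA of controls. Rpph1 differed by -4.47 in NIC CA1 and -2.83 in 8R CA1, where it read 769, 324 and 680 in polysome RNA, against 4080, 4170, 3770 and 4220 in total RNA (interaction -1.64 ± 0.33 SE). H4c14 differed by -1.25 in NIC CA1 and 0.13 in 8R CA1 (interaction -1.38), Olr1585 by -1.21 in NIC CA1 and -0.18 in 8R CA1 (interaction -1.02), and Ffar3, a receptor of short-chain fatty acids, by -0.69 in NIC CA1 and 0.27 in 8R CA1 (interaction -0.97). H4c14 read 99.2, 54.4 and 85.9 in polysome RNA, against 197, 193 and 236 in total RNA of NIC CA1, and 137, 86.4 and 40.1 in polysome RNA, against 97.4, 89.2, 63.8 and 46.1 in total RNA of 8R CA1.

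These interaction counts rested on single arrays. The 434 higher genes were 136, 289 and 189 without NIC CA1 polysome replicates 1, 2 and 3, 27 without NIC CA1 total replicate 2, 855 and 91 without 8R CA1 polysome replicates 2 and 3 (the array of pool 4), and 134 without 8R CA1 total replicate 1. The 52 lower genes were 23, 26 and 16 without NIC CA1 polysome replicates 1, 2 and 3, 25, 4 and 27 without NIC CA1 total replicates 1, 2 and 3, 119 and 9 without 8R CA1 polysome replicates 2 and 3, and 16 and 124 without 8R CA1 total replicates 1 and 4. Of the 8 named genes, Hspd1, Ociad2, Ccdc25 and Rpph1 were called in all 13 fits that left out 1 array, while Idi1 was not in 2, H4c14 in 10, Olr1585 in 8 and Ffar3 in 9 of them.

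**Figure D5:**
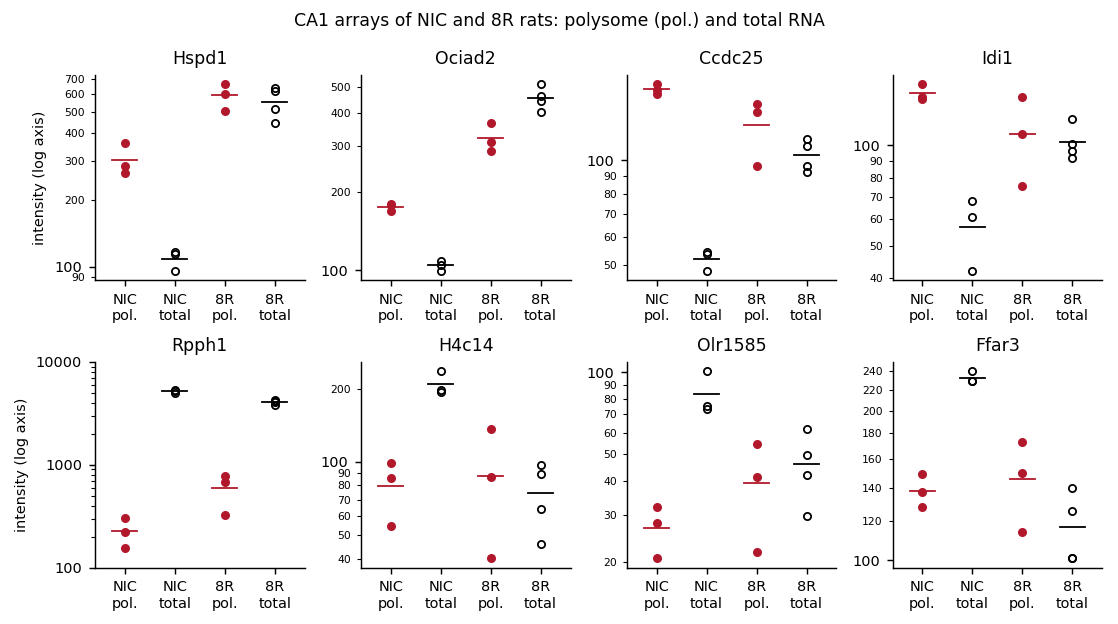
Intensity on a log axis in each CA1 array for the 8 genes named from the difference between NIC and 8R, with filled points for polysome RNA, open points for total RNA and a bar at the mean of each group. For the 4 upper genes the gap between polysome and total RNA in NIC CA1 is narrow or turned in 8R CA1, and for Rpph1 the gap is smaller in 8R CA1.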

How the data were processed

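Polysome and total RNA of dissected CA1 and CA3 were hybridised to Affymetrix Rat Gene 2.0 arrays. Equal RNA masses were labelled, per the labels' protocols, so the amount of RNA in a fraction does not appear. The authors deposited linear intensities, 1 for each probe set of an array, of up to 9550. The submitters' processing notes name PLIER and Affymetrix Expression Console and no version. Background correction and scaling between arrays: not given in the sources used here.

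Exactly 1 gene symbol belonged to 18511 of 36685 probe sets, several to 575 and none to 17599. A current gene record was found for 18394 of the first group, and 0 symbols needed updating. The brightest probe set stood for each of 18166 genes, and 5450 genes with a mean log2(intensity + 16) under 5.39, the 30th percentile, were left out. Where a gene had 2 bright probe sets, 152 of 190 agreed in sign, and 92 of the 101 called. All 27 arrays entered 1 limma 3.58.1 fit (R 4.3.3) of 8 group means, with variances shrunk along an intensity trend (19 residual degrees of freedom, 10.1 prior). Tests were two-sided, and the fit was tested on simulated data. Adjusted p-values are limma's. Each pool's supernatant gave both RNAs by the study's design text, and array codes in the descriptions carry a number, read here as the pool though no label says so outright, and so the pool entered a fit as a fixed block beside the unblocked one. Deviations from the group means correlated between polysome and total arrays of the same number at 0.09, 0.22 and 0.04 in NIC CA1. Arrays of different number there correlated at -0.15 to 0.1, and NIC CA3 arrays of the same number at 0.03, -0.04 and 0.03. These values do not settle whether the number marks the pool. Nothing in the labels ties arrays to separate days or animals beyond the pooling, so p-values measure the spread between these pools.

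The members, the 49 gene lists (48 with tested genes) and the tests were chosen with earlier results of these data known. Named genes were the 15 largest rises and 15 largest falls among called genes whose arrays did not overlap, up to 4 members of each list with the largest differences, every member of lists with up to 8 tested, and the largest called interactions, up to 6 each way for CA3 and 4 each way for 8R. Called symbols that were mere locus or clone names, 6 higher and 9 lower, are counted without names.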

Additional observations from a re-analysis of the deposited data

Results flagged for a closer look

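Interactions that passed the test were 1 for NIC CA1 against NIC CA3 and 486 for NIC CA1 against 8R CA1. Trpm4 differed between CA1 and CA3 by 1.01 log2 in polysome minus total RNA. Between NIC CA1 and 8R CA1, polysome minus total RNA differed by 1.25 for Hspd1, 1.15 for Ociad2, 1.12 for Ccdc25 and 1.11 for Idi1, and by -1.64 for Rpph1, -1.38 for H4c14, -1.02 for Olr1585 and -0.97 for Ffar3. In 8R CA3 polysome RNA, 1 of 4 arrays stood apart for Pxdn, with 8.23 beside 523, 458 and 460. The gap to the nearest array was 0.959 of the whole range on the log2 scale. The cut-off used for this flag, which lies under that value, is passed by chance in about 1 of 20 groups of 4 arrays. Groups of 3 arrays were not examined for it.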

How the results depend on the processing

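Genes higher and lower in NIC CA1 polysome RNA numbered 2802 and 1770 after median centring, 2364 and 1807 after quantile normalization, and 3549 and 2566 with centring in the 12 NIC arrays alone, a setting chosen after seeing the data. Array weights gave 1004 lower genes. Leaving out 1 array gave 4152 to 4652 higher and 449 to 553 lower genes. The 30 genes named for size kept call and direction under every setting run. Of the 172 called genes named from the lists, 24 lost the call after centring and 41 after quantile normalization, where Odc1 also turned, to -0.01 (limma adjusted p = 0.963). Between NIC CA1 and NIC CA3, genes higher in CA1 numbered 2 without a filter, 0 with a filter at the 50th percentile, 0 after centring and 0 after quantile normalization, 377 in the 12 NIC arrays, 155 without the 8R arrays of pool 4 and 856 with array weights, which also gave 1 lower gene. Leaving out 1 array gave 0 to 2 higher and 0 lower. Between NIC CA1 and 8R CA1, higher genes numbered 935 without the 8R arrays of pool 4 and 1300 with array weights. Lower genes numbered 100 after centring, 200 after quantile normalization, 157 without pool 4 and 247 with array weights. Leaving out 1 array gave 27 to 855 higher and 4 to 124 lower. The causes were not tested.

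With the pool as a replicate block, 5889 genes were higher and 927 lower in NIC CA1 polysome RNA, or 991 lower in the 6 NIC CA1 arrays alone, and 2664 lower with the block after centring, a setting chosen after seeing the data. The replicate block gave 1009 genes higher for CA1 minus CA3, and 0 after centring, and 2657 higher and 470 lower for NIC minus 8R, or 1786 and 844 after centring. All 172 called genes named from the lists kept the call with the block. Medians by protein length were not run, since protein lengths were not used here. The number of arrays, 3 in each NIC group, limits the precision.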

Other observations

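Probe sets without a gene symbol held a larger share of strong falls than named ones. Of 6883 tested with the same filter and fit, 1377 were higher (20.0%) and 614 lower (8.92%) in NIC CA1 polysome RNA, with a median of 0.09, and 49 were lower by 4-fold or more, down to -3.90. Among 12938 probe sets with 1 symbol, 5 were lower by 4-fold or more. What these probe sets measure is not known here.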
